A study of Arabidopsis thaliana with 12 samples.

Results

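The REVEILLE genes RVE1 to RVE8 are a small family of transcription factors in Arabidopsis thaliana, and their transcripts were followed in seedlings with and without the T-DNA allele rve5-2, in warmth and at the growth temperature. The 8 members were taken by locus identifier from the 32399 genes of the deposited table, and all 8 passed the filter on low counts that left 21870 genes for testing. RNA was sequenced from seedlings aged 5 days. They had grown at 22 °C in days of 16 h light and 8 h dark, spent 12 h at 29 °C or at 22 °C, and were harvested 12 h after dawn (zeitgeber time, ZT, 12). The 4 groups were the T-DNA line labelled rve5-2 at 29 °C and at 22 °C and the wild type (WT) at 29 °C and at 22 °C, with 3 libraries each. A T-DNA is a piece of transferred bacterial DNA that integrates at a site in the plant genome, and the line was represented by 1 allele. By its title, the study asked how RVE5 bears on the clock factor CCA1 in hypocotyl growth in warmth.

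REVEILLE proteins carry a MYB-like DNA-binding domain related to that of CCA1 and LHY, the morning-phased repressors of the plant circadian clock. RVE8, RVE4 and RVE6 activate evening-phased genes through a promoter sequence called the evening element, and recruit LNK proteins as coactivators. RVE1 links the clock to auxin and hypocotyl growth, RVE2 is also known as CIR1 and RVE7 as EPR1, and both were described as clock-associated MYB factors. RVE3 and RVE5 are the less studied relatives of RVE4, RVE6 and RVE8.

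The relation between the members can be read from a stretch of 48 coding bases inside the MYB-like domain, which is shown because all 8 members share it in aligned form. Sequences are from RefSeq, build TAIR10.1, and are given 5′ to 3′ on the coding strand. Capitals mark bases that differ from RVE5, the gene named by the allele.
RVE5: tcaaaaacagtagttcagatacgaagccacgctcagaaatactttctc
RVE3: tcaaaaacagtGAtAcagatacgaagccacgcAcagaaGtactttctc
RVE6: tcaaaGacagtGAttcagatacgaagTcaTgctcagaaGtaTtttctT
RVE8: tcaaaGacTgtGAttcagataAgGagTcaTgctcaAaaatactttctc
RVE4: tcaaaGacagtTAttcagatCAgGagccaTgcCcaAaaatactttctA
RVE2: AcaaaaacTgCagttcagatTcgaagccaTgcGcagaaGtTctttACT
RVE1: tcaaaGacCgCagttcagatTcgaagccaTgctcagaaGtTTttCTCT
RVE7: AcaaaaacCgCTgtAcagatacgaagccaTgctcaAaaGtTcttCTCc
RVE3 differed from RVE5 at 5 of the 48 bases, RVE6 at 8, RVE8 at 9 and RVE4 at 10. RVE2 differed at 11, and RVE1 and RVE7 at 12 each. Among RVE3, RVE4, RVE5, RVE6 and RVE8 the 10 pairs differed at 5 to 11 bases, among RVE1, RVE2 and RVE7 the 3 pairs differed at 7 to 9, and the 15 pairs between these sets differed at 10 to 16. In the first set an intron splits the stretch in the genome, while in RVE1, RVE2 and RVE7 it lies within an exon without a break.

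The same stretch of AT3G10113, a locus on another chromosome, was identical to that of RVE7. Reads from RVE7 can therefore be hard to place: 896 of the 1399 exonic stretches of 50 bases in RVE7, or 64.0%, occur elsewhere in the genome, 642 of them in AT3G10113. Of the stretches of RVE2, 2 of 735 (0.272%) do so, and of the other 6 members none does. Values of RVE7 are thus uncertain in how reads were divided between the copies, and its tests are also given on the sum of both loci.

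The deposited counts totalled 65.9 M to 89.1 M per library (M, mega), and low counts were spaced by about 3.71, so that a library held about 17.8 M to 24 M fragments if that spacing is 1 fragment. Levels within a gene are given as CPM, counts scaled to the library size after TMM normalization, and levels between genes as FPKM, the authors' length-scaled fragment counts. Calls are adjusted p-values under 0.05 from edgeR's quasi-likelihood test with Benjamini-Hochberg adjustment over all genes tested. The labels do not say that replicates were separate cultures, so p-values measure only the spread between these libraries. In bulk RNA from seedlings, fewer cells of a type and less RNA per cell cannot be told apart. The 16 root markers were below their 22 °C level at 29 °C in the summed level of every library. Their summed level was 11.9 to 28.6 CPM in rve5-2-labelled libraries at 29 °C and 126 to 164 CPM in those at 22 °C. It was 11 to 26.7 CPM in WT at 29 °C and 70.5 to 189 CPM in WT at 22 °C. No root marker was at 0 in all libraries of a group, and 12 of 16 were called lower at 29 °C in each genotype, none higher. Of all genes, 13% were called lower at 29 °C in rve5-2-labelled libraries and 7.41% in WT. Summed shoot markers were at least 43754 CPM in every library, and seed storage markers at most 0.194 CPM. Between the genotypes, 0 of 16 root markers were called at either temperature, and 1 of 5 shoot markers, LHCB1.3, was called higher in rve5-2-labelled libraries at 29 °C (log2 fold change, log2FC, of 0.73, SE 0.123, adjusted p = 0.0189).

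RVE5 (AT4G01280, chr4:535211-537322 in the table's build TAIR10, plus strand) had the highest level of the family in rve5-2-labelled libraries, although the label calls rve5-2 a T-DNA mutant. It stood at 1417, 1325 and 1246 CPM in those libraries at 29 °C, against 16.7, 13.4 and 15.1 CPM in WT at 29 °C. At 22 °C it stood at 1075, 939 and 1018 CPM in rve5-2-labelled libraries, against 14.6, 15.8 and 14.4 CPM in WT. The groups do not come near each other: the lowest library labelled rve5-2 was at 939 CPM and the highest WT library at 16.7 CPM. In fitted terms rve5-2-labelled libraries were 88.0-fold higher at 29 °C (log2FC 6.46, SE 0.114, adjusted p = 6.16e-12) and 67.7-fold higher at 22 °C (log2FC 6.08, SE 0.113, adjusted p = 1.05e-11). By FPKM, RVE5 ranked 95th of 32399 genes in rve5-2-labelled libraries at 29 °C and 112th at 22 °C, against 9461st in WT at 29 °C and 9572nd in WT at 22 °C. What these reads span within the gene, or whether they give a full protein, was not measured, since the table holds 1 value per gene.

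**Figure D1:**
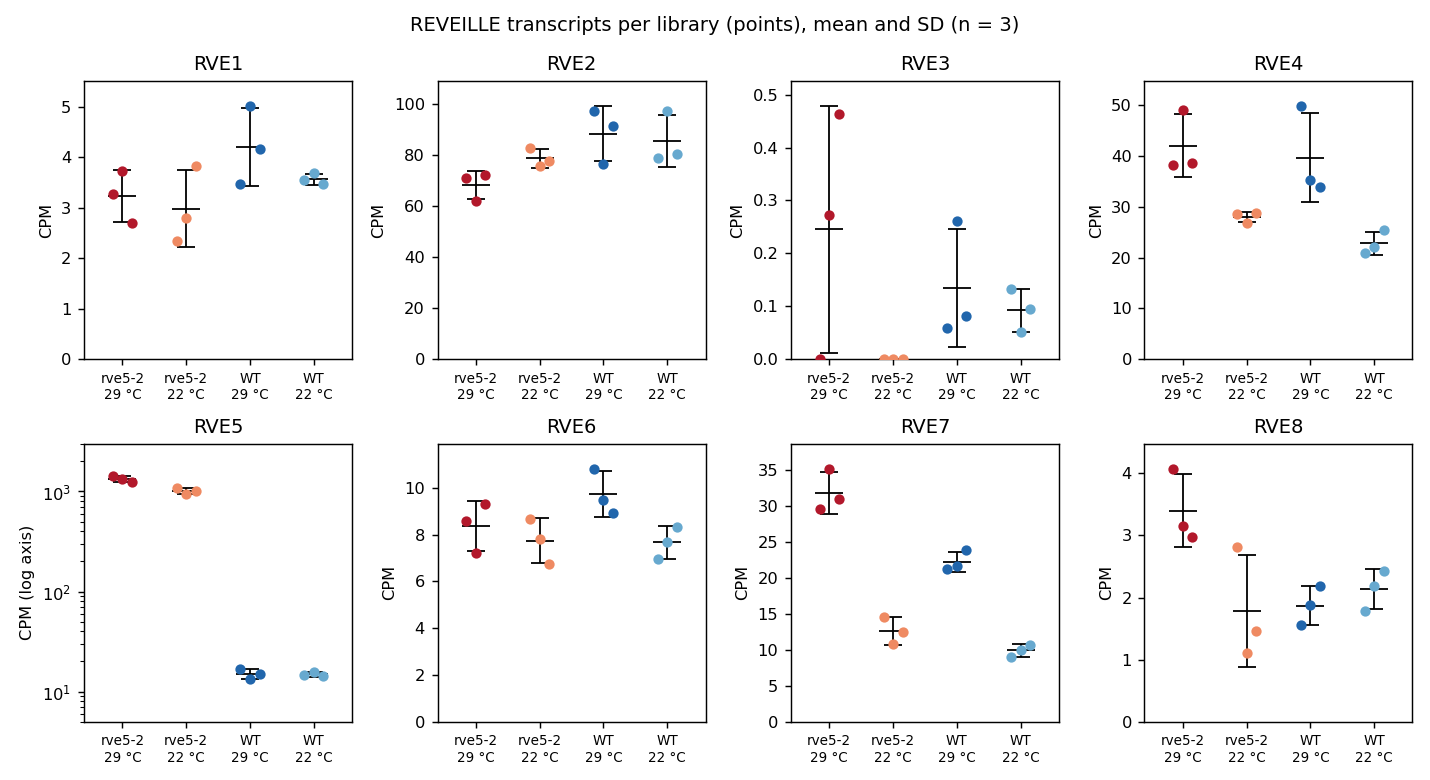
Levels of the 8 REVEILLE genes in CPM (vertical axes; log axis for RVE5 only) in each library (points), with the mean and SD of 3 libraries, for rve5-2 at 29 °C and 22 °C and WT at 29 °C and 22 °C. RVE5 lies at 939 to 1417 CPM in all 6 libraries labelled rve5-2 and at 13.4 to 16.7 CPM in all 6 WT libraries, and RVE4 and RVE7 lie above their 22 °C libraries at 29 °C in each genotype.

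The window before the RefSeq start of RVE5, up to the end of the preceding gene, is shown because the gene's transcript level differed most. It is chr4:534985-535197, plus strand, 213 bases, with its match to the G-box CACGTG in capitals.
RVE5: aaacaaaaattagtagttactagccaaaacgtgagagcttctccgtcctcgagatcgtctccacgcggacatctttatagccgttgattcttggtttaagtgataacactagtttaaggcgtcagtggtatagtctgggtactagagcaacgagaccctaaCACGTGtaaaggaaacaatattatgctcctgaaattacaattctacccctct
The G-box begins 52 bases before the start. Of all 27997 windows of 300 bases before RefSeq starts, 7.07% hold that motif on either strand. No WT or rve5-2 difference in this sequence was examined, since it is the reference genome's.

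The genes directly beside RVE5 were measured in the same libraries. AT4G01290, which lies 667 bases after RVE5 in the table and runs on the minus strand, was at 49.7, 49.8 and 50.6 CPM in rve5-2-labelled libraries at 29 °C, against 119, 111 and 111 CPM in WT at 29 °C. At 22 °C it averaged 62.4 ± 2.64 CPM in rve5-2-labelled libraries and 105 ± 4.05 CPM in WT (SD, n = 3 each). It was lower in rve5-2-labelled libraries by a log2 fold change of -1.18 at 29 °C (SE 0.0613, adjusted p = 9.89e-07) and of -0.75 at 22 °C (SE 0.0608, adjusted p = 1.28e-04). RefSeq's models of RVE5 and AT4G01290 overlap by 681 bases at their ends, and the library kit does not mark the strand, so reads from that overlap cannot be told apart. AT4G01270, which ends 226 bases before RVE5 on the plus strand, did not differ past the test between the genotypes. Its log2FC was 0.23 at 29 °C (SE 0.154, adjusted p = 0.796) and 0.24 at 22 °C (SE 0.157, adjusted p = 0.88). Of the 16 genes beside the 8 members, 10 could be tested, and AT4G01290 was the only one of these called between the genotypes, at each temperature. Of all genes, 0.466% were called at 29 °C and 0.192% at 22 °C.

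Among the other 7 members, none was called between the genotypes by edgeR at either temperature. The family count was therefore 1 of 8 at 29 °C and 1 of 8 at 22 °C, where 0.466% (0.32% higher and 0.146% lower) and 0.192% (0.137% higher and 0.0549% lower) of all genes were called. Without overlap between the genotypes were 3 members above and 1 below at 29 °C, as for 6.13% and 5.5% of all genes, and 3 above and 1 below at 22 °C, as for 7.2% and 7.17%. At an unadjusted p under 0.05, 4 of 8 members passed at 29 °C (RVE2, RVE5, RVE7 and RVE8) and 3 of 8 at 22 °C (RVE3, RVE5 and RVE7), where 8.4% and 6.39% of all genes passed. DESeq2 called 2 members at 29 °C and 1 at 22 °C, where it called 1.58% and 0.654% of all genes. The median log2 fold change of the 8 members was 0.30 at 29 °C and -0.06 at 22 °C, beside -0.01 and 0.00 over all genes, and with 8 members it says little about any of them.

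RVE7 (AT1G18330, chr1:6305966-6308013, minus strand) was at 29.5, 35.1 and 30.9 CPM in rve5-2-labelled libraries at 29 °C, against 21.2, 21.6 and 23.9 CPM in WT at 29 °C. The groups do not overlap, which held for 11.6% of all genes in this comparison. The log2 fold change was 0.52 (SE 0.117, adjusted p = 0.101), which did not pass in edgeR, and 0.52 with adjusted p = 0.01 in DESeq2. Summed with AT3G10113, the difference was 0.60 (SE 0.127, adjusted p = 0.0737 in edgeR). At 22 °C RVE7 was at 14.6, 10.8 and 12.4 CPM in rve5-2-labelled libraries, against 8.99, 10 and 10.7 CPM in WT. Every library labelled rve5-2 was above every WT library by a narrow margin, and the log2 fold change of 0.35 (SE 0.119, adjusted p = 0.60) did not pass. The share of all genes without overlap at 22 °C was 14.4%.

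RVE2 (AT5G37260, chr5:14751344-14753088, minus strand) was at 70.8, 62.1 and 72.0 CPM in rve5-2-labelled libraries at 29 °C, against 97.3, 76.3 and 91.2 CPM in WT at 29 °C. All 3 libraries labelled rve5-2 were below all 3 WT libraries, but the log2 fold change of -0.37 (SE 0.105, adjusted p = 0.248) did not pass. At 22 °C RVE2 was at 82.9, 75.5 and 77.6 CPM in rve5-2-labelled libraries, against 79.0, 97.4 and 80.5 CPM in WT, and the groups overlap (log2FC -0.12, SE 0.105, adjusted p = 0.925).

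RVE8 (AT3G09600, chr3:2946406-2948995, plus strand), the best-known activator of evening genes in the family, was a low-level transcript here. Its values were 4.07, 3.16 and 2.98 CPM in rve5-2-labelled libraries at 29 °C, against 1.55, 1.88 and 2.18 CPM in WT at 29 °C. The groups do not overlap, and the log2 fold change of 0.87 (SE 0.329, adjusted p = 0.457) did not pass. At 22 °C the values were 2.81, 1.1 and 1.46 CPM in rve5-2-labelled libraries, against 1.79, 2.18 and 2.43 CPM in WT, with wide overlap (log2FC -0.25, SE 0.328, adjusted p = 0.967).

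RVE1 (AT5G17300), RVE4 (AT5G02840) and RVE6 (AT5G52660) had log2 fold changes between the genotypes from -0.38 to 0.30. Of these 3 genes, RVE4 at 22 °C was the case without overlap. It was at 28.5, 26.8 and 28.7 CPM in rve5-2-labelled libraries, against 20.8, 22.1 and 25.4 CPM in WT (log2FC 0.30, SE 0.144, adjusted p = 0.809). RVE1 at 29 °C was at 3.27, 3.72 and 2.70 CPM in rve5-2-labelled libraries, against 3.46, 5.01 and 4.16 CPM in WT. Those groups overlap, and the log2 fold change was -0.38 (SE 0.225, adjusted p = 0.747). RVE6, an activator of evening genes with RVE4 and RVE8, had log2 fold changes of -0.22 at 29 °C (SE 0.143, adjusted p = 0.786) and 0.01 at 22 °C (SE 0.143, adjusted p = 1).

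In warmth, RVE7 and RVE4 were the members called higher in each genotype, and RVE5 and RVE3 were also called higher in rve5-2-labelled libraries. The interaction, which sets the 29 °C over 22 °C change in rve5-2-labelled libraries against the same change in WT, called 0 of 8 members in edgeR, DESeq2 and limma. In edgeR it called 0% of all genes. Of the members, 3 had an unadjusted interaction p under 0.05, namely RVE3, RVE5 and RVE8, where 4.89% of all genes did. For RVE5 the difference was 0.38 on the log2 scale (SE 0.129, adjusted p = 0.981 in edgeR). Their warm responses are thus not shown to differ between the genotypes. Counts of calls in warmth were 4 of 8 members in rve5-2-labelled libraries, all higher, where 26% of all genes were called, 13% higher and 13% lower. In WT they were 2 of 8, both higher, where 15.5% of all genes were called, 8.08% higher and 7.41% lower. Without overlap were 4 members above and 1 below in rve5-2-labelled libraries, as for 22.3% and 23.3% of all genes, and 3 above and 0 below in WT, as for 18% and 18.3%. The median log2 fold change of the members was 0.49 in rve5-2-labelled libraries and 0.29 in WT, beside 0.00 over all genes in each.

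RVE7 rose the most among the members with a count in every library. In rve5-2-labelled libraries it was at 29.5, 35.1 and 30.9 CPM at 29 °C, against 14.6, 10.8 and 12.4 CPM at 22 °C. In WT it was at 21.2, 21.6 and 23.9 CPM at 29 °C, against 8.99, 10 and 10.7 CPM at 22 °C. Each 29 °C library was above each 22 °C library of its genotype, by 2.52-fold in the fit in rve5-2-labelled libraries (log2FC 1.33, SE 0.119, adjusted p = 2.99e-05) and by 2.24-fold in WT (log2FC 1.17, SE 0.119, adjusted p = 1.63e-04). Summed with AT3G10113, RVE7 averaged 34.1 ± 4.25 CPM at 29 °C and 13.6 ± 2.26 CPM at 22 °C in rve5-2-labelled libraries. In WT the sum averaged 22.4 ± 1.33 CPM at 29 °C and 10.3 ± 0.934 CPM at 22 °C (SD, n = 3 each). The rise was 1.32 (SE 0.129, adjusted p = 5.89e-05) in rve5-2-labelled libraries and 1.13 (SE 0.129, adjusted p = 3.82e-04) in WT on the log2 scale. AT3G10113 on its own was listed at 0 in 4 of 12 libraries and reached at most 3.81 CPM.

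RVE4 (chr5:648704-651972, plus strand), an activator of evening genes, rose less. In rve5-2-labelled libraries it was at 38.2, 49.1 and 38.6 CPM at 29 °C, against 28.5, 26.8 and 28.7 CPM at 22 °C. In WT it was at 49.8, 35.3 and 33.9 CPM at 29 °C, against 20.8, 22.1 and 25.4 CPM at 22 °C. The groups do not overlap in either genotype. The log2 fold change was 0.58 in rve5-2-labelled libraries (SE 0.144, adjusted p = 0.0118) and 0.80 in WT (SE 0.145, adjusted p = 0.00422). Without the second library labelled rve5-2 at 29 °C, the highest of its group, the call in rve5-2-labelled libraries was lost (0.46, adjusted p = 0.056).

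RVE5 in rve5-2-labelled libraries was higher at 29 °C than at 22 °C by a log2 fold change of 0.40 (SE 0.09, adjusted p = 0.00787), with no overlap between 1246 to 1417 CPM at 29 °C and 939 to 1075 CPM at 22 °C. In WT its level was 15.1 ± 1.66 CPM at 29 °C and 14.9 ± 0.757 CPM at 22 °C (SD, n = 3 each), and the libraries overlap (log2FC 0.02, SE 0.0927, adjusted p = 0.924).

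The root markers were lower at 29 °C in each genotype, and with their mean log2 level (the root score) as a covariate the warm counts were 1 of 8 members in rve5-2-labelled libraries and 0 of 8 in WT. Without the covariate 4 of 8 and 2 of 8 were called, beside 26% and 15.5% of all genes. Over all genes, the fewest warm calls under any alternative were 94 of 21870 in rve5-2-labelled libraries and 30 in WT. Under that covariate RVE7 had a log2 fold change of 1.20 in WT (adjusted p = 0.0713), and it was the member still called in rve5-2-labelled libraries. RVE4 was at 0.10 in rve5-2-labelled libraries (adjusted p = 0.908) and at 0.32 in WT (adjusted p = 0.703), and RVE5 at 0.10 in rve5-2-labelled libraries (adjusted p = 0.836). Temperature and the root score move together in these 12 libraries and cannot be told apart.

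RVE3 (AT1G01520, chr1:190596-192139, plus strand), the closest member to RVE5 in the coding stretch shown, was near the limit of detection. It was at 0, 0.272 and 0.463 CPM in rve5-2-labelled libraries at 29 °C and at 0 in all 3 of those at 22 °C, so the libraries overlap at 0. In WT it was at 0.0594, 0.262 and 0.0807 CPM at 29 °C, against 0.132, 0.0502 and 0.0948 CPM at 22 °C. Between the genotypes RVE3 was listed at 0 in every rve5-2-labelled library at 22 °C and above 0 in every WT library (adjusted p = 0.654), and the groups overlap at 29 °C (adjusted p = 0.952). The 29 °C libraries labelled rve5-2 hold about 13.7 fragments in all, and with a floor of 3 fragments over the 22 °C group their mean was at least 5.14-fold higher. edgeR called this difference (adjusted p = 0.0321), but limma on log2(FPKM + 1) did not (adjusted p = 0.105), nor did edgeR without any one of 5 single libraries (adjusted p = 0.0675 to 0.0786). Those were each of the 3 libraries labelled rve5-2 at 22 °C and the second and the third at 29 °C. Depth thus limits what can be said of RVE3.

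RVE8 in rve5-2-labelled libraries was at 4.07, 3.16 and 2.98 CPM at 29 °C, against 2.81, 1.1 and 1.46 CPM at 22 °C. All 3 libraries at 29 °C were above those at 22 °C, a pattern that 45.6% of all genes showed in either direction, and the log2 fold change was 0.93 (SE 0.33, adjusted p = 0.0562). DESeq2 called it (0.92, adjusted p = 0.0326), and so did edgeR without the first library labelled rve5-2 at 22 °C (1.42, adjusted p = 0.00927) and without the first WT library at 29 °C (0.93, adjusted p = 0.045). In WT the values were 1.55, 1.88 and 2.18 CPM at 29 °C, against 1.79, 2.18 and 2.43 CPM at 22 °C, and the libraries overlap (log2FC -0.19, SE 0.328, adjusted p = 0.732). The interaction for RVE8 was 1.12 on the log2 scale (SE 0.464, adjusted p = 0.981 in edgeR).

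RVE6 (chr5:21359059-21362160, minus strand) in WT was at 10.8, 9.47 and 8.90 CPM at 29 °C, against 6.95, 7.70 and 8.33 CPM at 22 °C. These libraries do not overlap, as for 36.3% of all genes, and the log2 fold change of 0.34 (SE 0.143, adjusted p = 0.122) did not pass. In rve5-2-labelled libraries RVE6 was at 8.56, 7.2 and 9.31 CPM at 29 °C, against 8.67, 7.79 and 6.74 CPM at 22 °C, with overlap (log2FC 0.11, SE 0.143, adjusted p = 0.607). RVE2 in rve5-2-labelled libraries was lower in every library at 29 °C than at 22 °C, at a log2 fold change of -0.20 that did not pass (SE 0.105, adjusted p = 0.175), and in WT the change was 0.04 (SE 0.105, adjusted p = 0.812). RVE1 (chr5:5690227-5692902, minus strand) overlapped between the temperatures in each genotype, with log2 fold changes of 0.11 in rve5-2-labelled libraries (SE 0.226, adjusted p = 0.755) and 0.24 in WT (SE 0.224, adjusted p = 0.501).

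**Figure D2:**
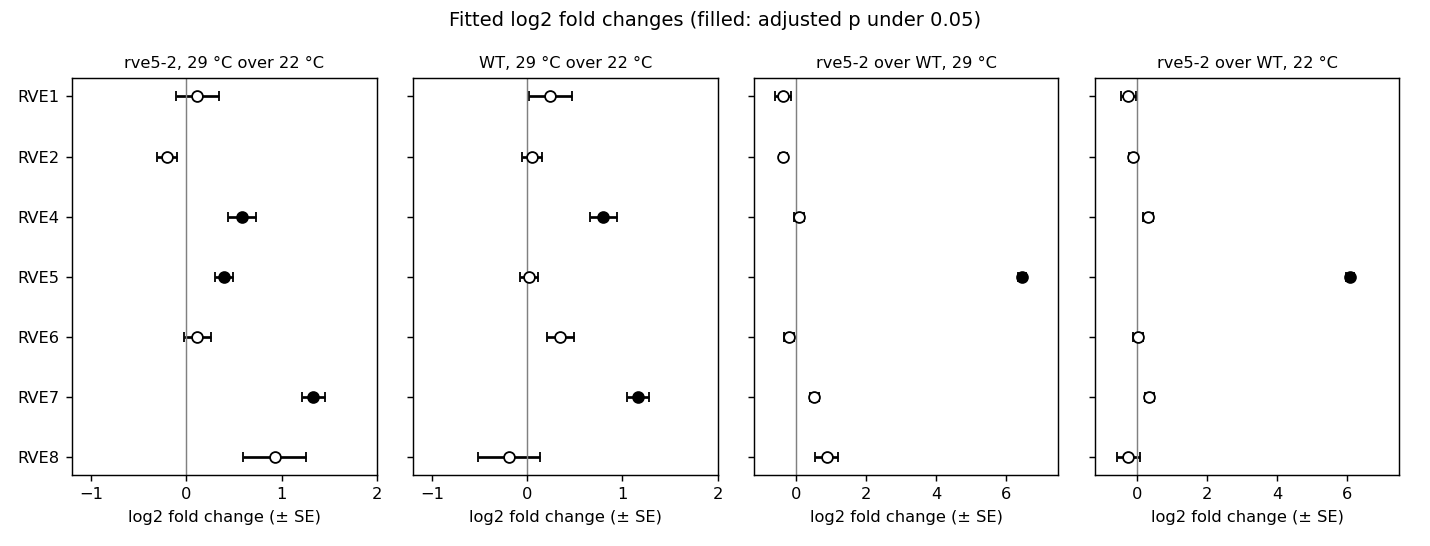
Fitted log2 fold changes (horizontal axes, with SE) of 7 REVEILLE genes for 29 °C over 22 °C in rve5-2 and in WT and for rve5-2 over WT at 29 °C and at 22 °C; filled points passed an adjusted p of 0.05, and RVE3, near the limit of detection, is not drawn. RVE7 and RVE4 are filled in the warm comparison of each genotype, and RVE5 stands alone at 6.46 and 6.08 between the genotypes.

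The members called higher in warmth in each genotype are RVE7 and RVE4, and their upstream windows are shown for comparison. That of RVE7 is chr1:6308244-6308543, minus strand, 300 bases, and capitals mark the evening element AAAATATCT.
RVE7: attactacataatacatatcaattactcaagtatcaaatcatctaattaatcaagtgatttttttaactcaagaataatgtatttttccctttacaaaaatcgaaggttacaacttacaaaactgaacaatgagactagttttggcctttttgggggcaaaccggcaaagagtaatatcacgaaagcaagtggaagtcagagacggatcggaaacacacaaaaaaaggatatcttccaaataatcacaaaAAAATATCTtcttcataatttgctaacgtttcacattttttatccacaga
That of RVE4 is chr5:648539-648647, plus strand, 109 bases, up to the end of the preceding gene, and holds no match to the motifs searched, so nothing is in capitals.
RVE4: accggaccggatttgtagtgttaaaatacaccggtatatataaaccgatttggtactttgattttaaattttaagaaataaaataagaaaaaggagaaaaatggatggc
The motifs searched on both strands in the 300 bases before each RefSeq start were the evening element AAAATATCT, the CCA1-binding site AAAAATCT, the G-box CACGTG and the heat shock element. RVE7 was the 1 member of 8 with an evening element, 50 bases before its start, a motif that 2.78% of all 27997 windows hold. The CCA1-binding site (7.88% of windows) was found before RVE2 and RVE6, and the G-box (7.07%) before RVE1, RVE2, RVE3 and RVE5. The heat shock element (0.496%) was found before none of the 8 members, and no searched motif before RVE4 or RVE8. A match describes the letters of this window and is not a measured binding site. Of the 10 genes beside members that could be tested, 3 were called higher and 1 lower in warmth in rve5-2-labelled libraries, and 1 higher in WT. Of all genes, 26% and 15.5% were called in these 2 comparisons. AT4G01270 before RVE5 rose by a log2FC of 1.3 in rve5-2-labelled libraries (SE 0.158, adjusted p = 2.2e-04) and 1.31 in WT (SE 0.158, adjusted p = 5.1e-04). In rve5-2-labelled libraries AT5G17290 beside RVE1 was higher (log2FC 0.61, SE 0.142, adjusted p = 0.00887), and AT4G01290 after RVE5 was lower (log2FC -0.32, SE 0.0607, adjusted p = 0.00295). AT1G18335 beside RVE7 was higher there (log2FC 0.54, SE 0.145, adjusted p = 0.0177). In WT it was at 0.37 (SE 0.145, adjusted p = 0.105).

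Per length, the makeup of the family's transcript pool differed between the genotypes through RVE5. RVE5 made up 87.9 ± 0.786% of the summed family FPKM in rve5-2-labelled libraries at 29 °C and 86.0 ± 0.242% at 22 °C, against 6.96 ± 0.0178% in WT at 29 °C and 8.12 ± 0.403% in WT seedlings at 22 °C (SD, n = 3 each). RVE2 took 6.74 ± 0.694% in rve5-2-labelled libraries at 29 °C, against 60.5 ± 1.94% in WT at 29 °C. At 22 °C it took 9.96 ± 0.248% in rve5-2-labelled libraries, against 69.1 ± 2.55% in WT, where it held the largest share at each temperature. The summed family level was 957 ± 34.3 FPKM in rve5-2-labelled libraries at 29 °C and 798 ± 49.1 FPKM at 22 °C. In WT it was 146 ± 9.79 FPKM at 29 °C and 129 ± 14.5 FPKM at 22 °C. Without RVE5 the sum was 115 ± 3.38 FPKM in rve5-2-labelled libraries at 29 °C and 112 ± 5.55 FPKM at 22 °C, and 136 ± 9.08 FPKM in WT at 29 °C and 118 ± 13.7 FPKM at 22 °C. At 29 °C rve5-2-labelled libraries lay at 112 to 119 FPKM for this sum without RVE5, below the 126 to 142 FPKM of WT. In CPM the same sum overlapped, at 154 to 161 in rve5-2-labelled libraries and 150 to 184 in WT at 29 °C. At 22 °C they lay at 106 to 117 FPKM, within the 107 to 133 FPKM of WT except for the lowest.

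**Figure D3:**
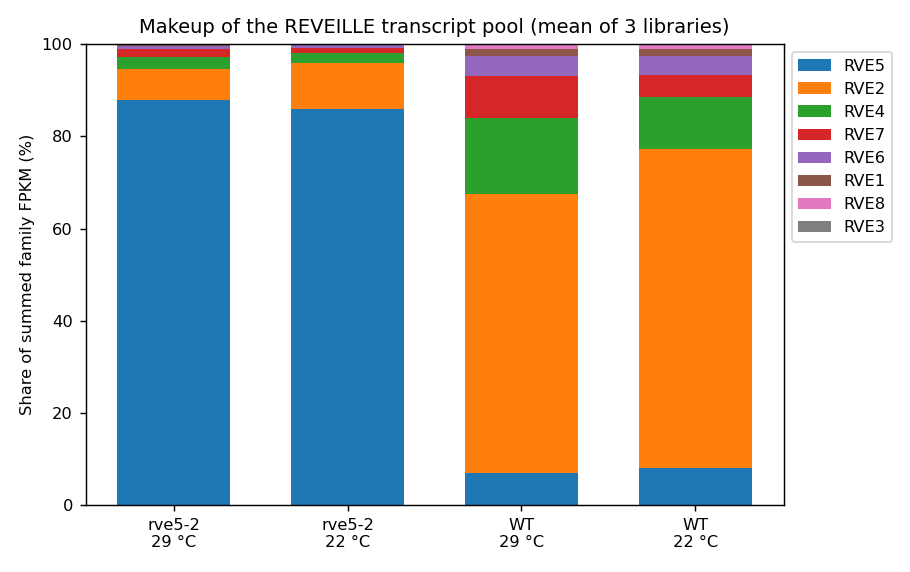
Share of each REVEILLE gene in the summed FPKM of the family (vertical axis, percent; bars are means of 3 libraries) in rve5-2 at 29 °C and 22 °C and in WT at 29 °C and 22 °C. RVE5 takes 87.9% and 86.0% in rve5-2, and RVE2 takes 60.5% and 69.1% in WT.

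Within a library the order of levels by FPKM was nearly the same in the 4 groups once RVE5 is set aside. It ran RVE2, RVE4, RVE7, RVE6, then RVE1 and RVE8, and RVE3 at the bottom. In WT at 29 °C RVE7 (13.4 ± 1.43 FPKM) stood above RVE5 (10.2 ± 0.706 FPKM), while in WT at 22 °C RVE7 (6.12 ± 0.581 FPKM) stood below RVE5 (10.4 ± 0.773 FPKM). RVE8 (2.20 ± 0.332 FPKM) stood above RVE1 (1.61 ± 0.245 FPKM) in rve5-2-labelled libraries at 29 °C, and below it in the other 3 groups (SD, n = 3 each). Neighbours in the order whose libraries overlapped were RVE1 and RVE8 in rve5-2-labelled libraries at 22 °C and RVE7 and RVE6 in WT at 22 °C. All other neighbours in the 4 groups stood apart in every library. By group, RVE7 took 1.87 ± 0.219% and 0.946 ± 0.0839% of the family's FPKM in rve5-2-labelled libraries at 29 °C and at 22 °C, and 9.16 ± 1.14% and 4.78 ± 0.456% in WT at 29 °C and at 22 °C.

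LNK proteins are the coactivators of RVE8 and RVE4, and of their 4 genes 2 were called higher in rve5-2-labelled libraries than in WT at 29 °C and 1 at 22 °C, with median log2FC of 2.26 and 1.56. Of all genes, 0.32% were called higher at 29 °C and 0.137% at 22 °C. LNK2 at 22 °C (log2FC 1.33, SE 0.251, adjusted p = 0.0816) was called without the first of WT at 29 °C, the third labelled rve5-2 at 22 °C or the third labelled rve5-2 at 29 °C (adjusted p = 0.0128 to 0.0472). DESeq2 (adjusted p = 5.22e-05) and edgeR with a replicate block (0.00237) also called it. LNK4 at 29 °C (log2FC 3.08, SE 0.609, adjusted p = 0.0539) was called without the first of WT at 29 °C or the second or the third labelled rve5-2 at 22 °C (adjusted p = 0.0102 to 0.0441). It was also called by DESeq2 (adjusted p = 1.5e-05), limma on log2(FPKM + 1) (0.0086) and edgeR with a replicate block (0.0155). Further edgeR calls came without the filter (0.0394), with counts divided by their spacing (0.0216) and with the root score (0.0464). The other alternatives called neither difference. In warmth 4 of 4 were called higher in rve5-2-labelled libraries and 2 of 4 in WT, where 13% and 8.08% of all genes were called higher. The medians were 2.63 and 1.98, beside 0.00 over all genes. LNK3 and LNK4 in WT were also above their 22 °C libraries without overlap, as for 18% of all genes. Their log2FC was 2.98 (SE 1.01, adjusted p = 0.0648) and 1.79 (SE 0.623, adjusted p = 0.0701). DESeq2 called both (adjusted p = 0.00904 and 0.0159), and edgeR called each without some single libraries. LNK3 was near the limit of detection, at 0, 0 and 0.249 CPM in WT at 22 °C. With the root score as a covariate, 1 of 4 was called in each genotype, which was LNK1. LNK1 was at 57.6, 58.6 and 53.6 CPM in rve5-2-labelled libraries at 29 °C, against 28.5, 28.4 and 27.4 CPM in WT at 29 °C. The groups do not overlap (log2FC 1.01, SE 0.114, adjusted p = 0.00111), nor do they at 22 °C (log2FC 1.41, SE 0.118, adjusted p = 1.28e-04). CCA1 and LHY, the repressors that REVEILLE proteins resemble, were low at this time of day, with 0 of 2 called by edgeR in any comparison. CCA1 was at 2.77, 3.01 and 1.68 CPM in rve5-2-labelled libraries at 29 °C, against 1.01, 0.424 and 0.772 CPM in WT at 29 °C, without overlap (log2FC 1.75, SE 0.53, adjusted p = 0.289). In rve5-2-labelled libraries CCA1 at 29 °C was also above its 22 °C values of 0.734, 0.751 and 1.13 CPM (log2FC 1.51, SE 0.526, adjusted p = 0.0523). That difference was called by DESeq2 (adjusted p = 0.0199), by limma (0.012 and 0.039), by edgeR with only the groups compared (0.0135) and by edgeR without any one of 5 libraries (0.0238 to 0.0491). Those were the first or the second of WT at either temperature and the third labelled rve5-2 at 29 °C.

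Among 10 evening and daytime clock genes, repressors of the pseudo-response regulator family (5 genes) gave 1 higher at 29 °C and 2 higher at 22 °C in rve5-2-labelled libraries than in WT. In warmth they gave 2 higher in rve5-2-labelled libraries and 4 higher in WT. Under the root score covariate 1 was called in each genotype, which was PRR7. The evening complex genes with GI (5 genes) gave 1 lower at 29 °C and 2 higher at 22 °C between the genotypes, and 2 higher and 1 lower in warmth in each genotype. Between the genotypes, 0.32% of all genes were called higher and 0.146% lower at 29 °C, and 0.137% and 0.0549% at 22 °C. In warmth, 13% of all genes were called higher and 13% lower in rve5-2-labelled libraries, and 8.08% and 7.41% in WT. PRR7, a daytime repressor, was higher in rve5-2-labelled libraries than in WT at a log2FC of 0.85 at 29 °C (SE 0.114, adjusted p = 0.00387) and of 1.39 at 22 °C (SE 0.117, adjusted p = 1.28e-04). ELF4, an evening complex subunit, was lower in rve5-2-labelled libraries at 29 °C (log2FC -0.91, SE 0.112, adjusted p = 0.00221), and at 22 °C its log2FC was -0.01 (SE 0.11, adjusted p = 1). The 29 °C calls of PRR7 and ELF4 were lost when the fit held only the groups compared (adjusted p = 0.0832 and 0.0568). DESeq2 also called GI (adjusted p = 0.00124) and PRR9 (0.021) higher and BOA (0.0153) lower at 29 °C, and TOC1 (0.00102) higher at 22 °C. It called 1.58% of all genes at 29 °C and 0.654% at 22 °C. For PRR9 limma on log2(FPKM + 1) did so too (adjusted p = 0.0273), and for GI, BOA and TOC1 edgeR did so without some single libraries. The call of PRR5 at 22 °C was lost without any one of 4 libraries (adjusted p = 0.114 to 0.16), which were the first and the third of WT and the first and the second labelled rve5-2 at 22 °C. That of LUX at 22 °C was lost without any one of 7 (adjusted p = 0.0614 to 0.216), which were all 3 of WT at 22 °C, the second of WT at 29 °C, the first and the second labelled rve5-2 at 22 °C and the first labelled rve5-2 at 29 °C. In limma neither was called, PRR5 at an adjusted p of 0.0563 and 0.0822 and LUX at 0.236 and 0.311. LUX was also lost in edgeR with a replicate block (adjusted p = 0.0531). In WT in warmth, PRR5 was lost without the first or the third library at 22 °C or the first at 29 °C (adjusted p = 0.0554 to 0.0799). ELF4 there was lost without the first or the third at 22 °C or the first or the second at 29 °C (adjusted p = 0.0664 to 0.0867). With only the groups compared in the fit, edgeR called neither PRR5 nor ELF4 there (adjusted p = 0.0711 and 0.0547). ELF4 was also lost there in limma on log2(FPKM + 0.1) (adjusted p = 0.0518).

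**Figure D4:**
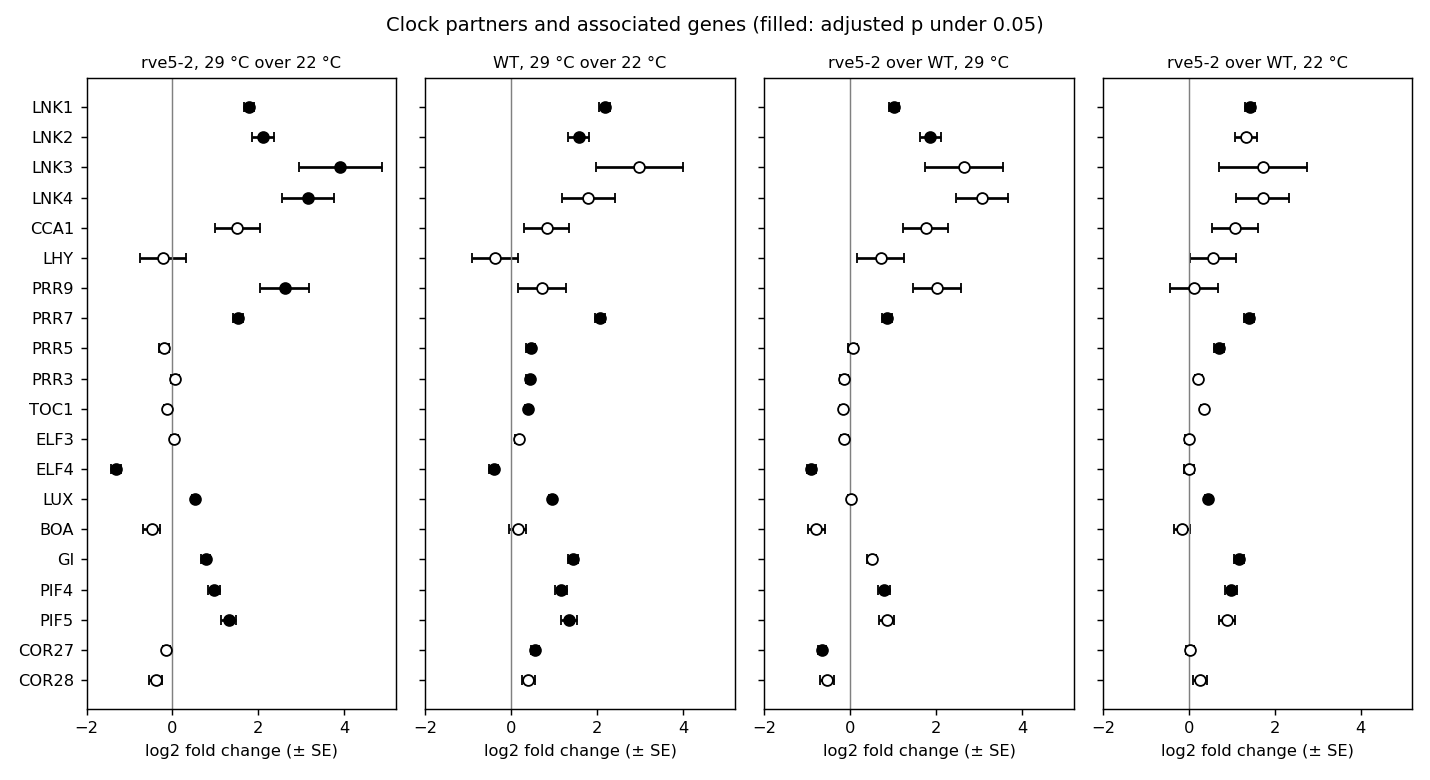
Fitted log2 fold changes (horizontal axes, with SE) of 20 clock and RVE-associated genes for 29 °C over 22 °C in rve5-2 and in WT and for rve5-2 over WT at 29 °C and at 22 °C; filled points passed an adjusted p of 0.05. LNK1 and PRR7 are filled in all 4 comparisons, and ELF4 is filled at 29 °C but not at 22 °C between the genotypes.

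Of 10 other genes tied to REVEILLE factors in earlier work, 1 was called higher (PIF4) and 1 lower (COR27) in rve5-2-labelled libraries than in WT at 29 °C, and 1 higher (PIF4) at 22 °C. Of all genes, 0.32% were called higher and 0.146% lower at 29 °C, and 0.137% higher at 22 °C. The PIF4 calls were lost without single libraries, at 29 °C the second or the third of WT or any one of the 3 labelled rve5-2 (adjusted p = 0.0605 to 0.137), and at 22 °C the second or the third of WT or the first labelled rve5-2 (adjusted p = 0.0603 to 0.0661). With only the groups compared in the fit, PIF4 and COR27 were not called at 29 °C (adjusted p = 0.0999 and 0.0746). PIF4 at 29 °C was also lost in limma on log2(FPKM + 0.1) (adjusted p = 0.0688). DESeq2 called PIF5 higher at 29 °C and at 22 °C (adjusted p = 0.000677 and 0.000763). So did edgeR at 29 °C with a replicate block (0.0437) and at 22 °C with only the groups compared (0.044). COR28 was called lower at 29 °C without the third labelled rve5-2 at 29 °C (adjusted p = 0.0341 in edgeR). In warmth 26% of all genes were called in rve5-2-labelled libraries and 15.5% in WT. There the list gave 2 higher and 1 lower in rve5-2-labelled libraries and 3 higher and 1 lower in WT. It holds 3 genes downstream of RVE1, which are YUC8 for auxin synthesis, PORA for chlorophyll synthesis and GA3OX2 for gibberellin synthesis, and none was called between the genotypes. PORA was at 0 in every WT library and at most 0.326 CPM in any library, so its test says little. YUC8 was at 3.37, 5.48 and 4.42 CPM in rve5-2-labelled libraries at 29 °C, against 1.91, 2.32 and 2.49 CPM in WT at 29 °C, without overlap (log2FC 0.98, SE 0.353, adjusted p = 0.408). GA3OX2 was called lower in warmth in each genotype, at a log2FC of -2.02 in rve5-2-labelled libraries (SE 0.323, adjusted p = 0.00112) and -1.39 in WT (SE 0.313, adjusted p = 0.012). With the root score as a covariate it was at -1.28 in rve5-2-labelled libraries (adjusted p = 0.391) and -0.74 in WT (adjusted p = 0.725). ERF53, which RVE4 and RVE8 activate early in heat, was below its 22 °C libraries at 29 °C in each genotype without passing in edgeR. Its log2FC was -1.26 in rve5-2-labelled libraries (SE 0.612, adjusted p = 0.15) and -1.08 in WT (SE 0.606, adjusted p = 0.249). In rve5-2-labelled libraries limma called it (adjusted p = 0.0254 and 0.0224), as did edgeR without the third of these at 29 °C (0.0348). ERF53 was at only 0.116 to 0.752 CPM over all libraries. Over the 26 genes of these lists the interaction called 0 in edgeR, with 13 at an unadjusted p under 0.05, where 4.89% of all genes passed. Of those 13, 11 were negative. DESeq2 called 4 of the 26 (ELF4, TOC1, COR27 and GI), where it called 0.201% of all genes. With the root score as a covariate, the genes of these lists called in warmth were 3 of 26 in rve5-2-labelled libraries (LNK1, PRR7 and ELF4) and 4 of 26 in WT (LNK1, PRR7, GI and LUX). Without it they were 12 of 26 in rve5-2-labelled libraries and 13 of 26 in WT, where 26% and 15.5% of all genes were called. The fewest warm calls over all genes under any alternative were 94 of 21870 in rve5-2-labelled libraries and 30 in WT. Of 16 other MYB-related genes of the same domain type, 15 could be tested, and 0 were called between the genotypes at either temperature. Of all genes, 0.466% were called between the genotypes at 29 °C and 0.192% at 22 °C. In warmth 1 of these MYB-related genes was higher and 2 lower in rve5-2-labelled libraries, and 3 were higher and 1 lower in WT, beside the same 26% and 15.5% of all genes.

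The genes whose levels followed each member most closely across the 12 libraries were found by Pearson's r of log2(CPM + 1) among 7116 named genes with a mean of at least 5 CPM. These values are descriptions, and libraries of a group share genotype and temperature. For RVE7 they were TIN1 (r = 0.979) and ATERDJ3A (r = 0.972). TIN1 averaged 12.3 ± 0.577 CPM in rve5-2-labelled libraries at 29 °C and 2.38 ± 0.276 CPM at 22 °C, and 8.96 ± 1.02 CPM in WT at 29 °C and 1.45 ± 0.409 CPM at 22 °C (SD, n = 3 each). For RVE4 they were CRSH (r = 0.968) and SVP (r = 0.965), a flowering repressor. For RVE2 they were GTE7 (r = 0.959) and BOA (r = 0.863), a LUX relative. RVE1 was followed by MOS6 and PRMT1A (r = 0.903 and 0.879), RVE6 by BAM2 and HEMG2 (r = 0.846 and 0.842) and RVE8 by RALFL33 and ELF5A-1 (r = 0.862 and 0.843). Within the 6 WT libraries the r of RVE8 was only 0.228 and 0.29, against 0.908 and 0.962 within the 6 labelled rve5-2. For RVE2 with BOA it was 0.615 and 0.951, and for RVE6 with HEMG2 0.931 and 0.673. Apart from RVE5, the other pairs had an r of at least 0.809 within each genotype. For RVE3, whose counts are near 0, CKX6 and ATMAK3 came out (r = 0.952 and 0.925), and little can be read from them.

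For RVE5 the libraries fall into 2 clusters by genotype, so an r over all 12 restates that split. The genes found were EXO70H4 and HDR. EXO70H4 averaged 340 ± 4.0 CPM in rve5-2-labelled libraries at 29 °C and 285 ± 5.36 CPM at 22 °C, against 0.893 ± 0.407 CPM in WT at 29 °C and 0.802 ± 0.0932 CPM in WT seedlings at 22 °C (SD, n = 3 each). Within the 6 libraries labelled rve5-2 its r with RVE5 was 0.961, and within the 6 WT libraries 0.538. In those labelled rve5-2, EXO70H4 was at 336 to 344 CPM at 29 °C and 279 to 289 CPM at 22 °C. RVE5 was also higher there at 29 °C without overlap, so the r of 0.961 largely restates the split by temperature. EXO70H4 (AT3G09520) lies 20.8 kb before RVE8 on chromosome 3, while RVE5 is on chromosome 4. HDR, an enzyme of plastid isoprenoid synthesis, averaged 173 ± 16.3 CPM in rve5-2-labelled libraries at 29 °C and 162 ± 10.4 CPM at 22 °C, against 116 ± 10.3 CPM in WT at 29 °C and 113 ± 5.08 CPM in WT at 22 °C. Its r with RVE5 was 0.564 within the 6 libraries labelled rve5-2 and 0.0892 within the 6 WT libraries.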

How the data were processed

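The table deposited by the authors holds a count column and an FPKM column for each of the 12 libraries. Per the labels' protocols, Trizol was used for extraction and the Illumina TruSeq v2 kit, which does not mark strand, for the libraries. The submitters' processing notes name cutadapt 1.9, HISAT2 2.0.4, StringTie 1.3.4d, edgeR and the build TAIR10, and how reads were assigned to genes is not given in the sources used here. The deposited count values are whole numbers whose low values are spaced by about 3.71, and they were tested as deposited. The deposited FPKM values are fragments scaled by transcript length and library size, computed by the authors, with 0.0001 for genes without reads. The temperature was taken from each library's own label.

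The quasi-likelihood test of edgeR 4.0.16 (R 4.3.3) was run on these counts: filterByExpr with a minimum count of 10 left 21870 of 32399 genes, libraries were scaled by TMM, and a fit of all 12 libraries gave each of the 4 groups its own mean. Benjamini-Hochberg adjustment ran over every gene tested, with calls under 0.05. Each SE of a log2 fold change is approximate. Alternatives used limma 3.58.1, with pseudocounts of 1 and 0.1 on log2 FPKM, and DESeq2 1.42.0, with its size factors also tried in edgeR. Further alternatives dropped the filter, required a mean FPKM of 5 or more, or fitted only the groups compared. Others were a replicate block, the root score as a covariate, counts divided by their spacing, shares of CPM in place of FPKM, and leaving out each library in turn. The members and gene lists were chosen with earlier results of these data known. Named genes are the members, the fixed lists, the genes beside each member and the 2 genes with the highest r to each. Floors of 3 fragments cover counting error only. RefSeq (TAIR10.1) holds 27998 of the table's loci, and for 5954 both ends match. Positions of genes are the table's, and those of sequences are RefSeq's.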

Additional observations from a re-analysis of the deposited data

How the results depend on the processing

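The 40 member results (8 genes in 5 comparisons) were recomputed under the alternatives. Of 857 values, 836 stayed on their side of the threshold, 15 lost a call, 6 gained one and none of the called values reversed. The number of members called in warmth was 1 in rve5-2-labelled libraries and 0 in WT with the root score as a covariate. It was 2 to 5 in rve5-2-labelled libraries when each library was left out in turn, against 4 with all libraries, and 2 without the second of these libraries at 29 °C. In WT it stayed at 2 under every omission. Between the genotypes it stayed at 1 at each temperature under every omission, and DESeq2 gave 2 at 29 °C, through RVE7. The interaction gave 0 under all alternatives. The RVE3 call in warmth in rve5-2-labelled libraries was lost in limma (adjusted p = 0.105 and 0.0901), within only the groups compared (0.0693) and with the root score (0.257). The cause of these changes was not tested. Replicate numbers did not pair the libraries: the correlation of their deviations ran from -0.114 to 0.381 over 18 same-numbered pairs and exceeded 0.1 in 7, and 5 of 12 libraries correlated best with their own number. With the replicate block, the counts were 3 in rve5-2-labelled libraries and 2 in WT in warmth, 1 at each temperature between the genotypes and 0 for the interaction, and RVE3 was no longer called (adjusted p = 0.0633). Over all genes, calls ranged with the alternative from 94 to 6976 in warmth in rve5-2-labelled libraries (5696 as reported), 30 to 4549 in WT (3387), 38 to 559 between the genotypes at 29 °C (102), 25 to 143 at 22 °C (42) and 0 to 44 for the interaction (0). Shares of the family computed from CPM in place of FPKM moved by more than the spread between libraries (the SD) in 23 cases, with RVE2 in WT at 48.7% at 29 °C and 58.3% at 22 °C. Leaving out 1 of 3 libraries cannot shift a mean by as much as that SD, so nothing is read from it for the shares. A mean FPKM of at least 5 left 5 members to test, and with counts divided by 3.71, RVE3 could not be tested. The alternative that sums RVE7 with AT3G10113 was chosen after seeing the data. Depth limits RVE1, RVE3 and RVE8 most, whose group means lay under 5 CPM.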
